A study of Homo sapiens with 6 samples.

Results

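The BCL2 family was described through 10 of its genes, chosen by name from the 23686 genes in the files: the anti-apoptotic BCL2, BCL2L1 and MCL1, the effectors BAX and BAK1, and the BH3-only genes BCL2L11, BBC3, PMAIP1, BID and BAD. All 10 were found and passed the filter on low counts, with between 230 and 23781 reads a library. They were measured by RNA sequencing in 6 libraries of GFP-positive HEK293 cells, an established human embryonic kidney line. The ROS co-culture group held 3 libraries of GFP+ cells kept for 10 h beside HEK293 cells that carry DAAO and make reactive oxygen species (ROS), with 25 µM D-alanine in the labels. The control group held 3 libraries of GFP+ cells, labelled Wt controls, and both groups were grown in high-glucose DMEM with 10% FBS and sorted for GFP. DAAO usually stands for D-amino acid oxidase, which releases hydrogen peroxide as it oxidises D-amino acids. The same treatment text stands on all 6 samples, so whether the controls received D-alanine or other neighbours is not settled by the labels. The promoter that drives DAAO or GFP, and whether either line is 1 clone, are not given in the sources used here. Nothing states that the 3 samples of a group came from separate cultures, so p-values measure only the spread between these samples, which may be technical.

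The BCL2 family decides whether the outer mitochondrial membrane is breached during apoptosis. BAX and BAK1 form the pores that release cytochrome c, the anti-apoptotic proteins hold them and the BH3-only proteins in check, and the BH3-only proteins relay damage, death receptor or growth factor signals by occupying the groove of the anti-apoptotic proteins or by activating the effectors. Much of this control acts on the proteins (binding, cleavage, phosphorylation and turnover), which RNA counts do not show. The counts are per gene, so the splice forms of BCL2L1, MCL1 and BCL2L11, some of which have opposite or graded activity, are summed.

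The libraries held 19091085 to 36250314 gene-assigned reads. Of the 7 HEK293 markers, 7 were detected, with a summed level of 1828 to 1890 CPM (a read count relative to the size of its library) in co-culture and 1495 to 1543 in the controls; VIM, an intermediate filament gene, was the largest part of that sum and was higher in co-culture (log2 fold change 0.40, edgeR adjusted p 0.00793). The 7 markers of blood, liver and endothelial cells had 0 to 7 reads in any library, 0.166 to 0.421 CPM summed in co-culture against 0.417 to 0.524 in the controls, and CD3E and HBB were at 0 throughout. The human DAO gene had 0 reads in all libraries, which allows up to 0.0828 to 0.157 CPM and would not count a transgene of another species. In bulk RNA, fewer cells of a kind and less RNA per cell cannot be told apart. Some libraries stood apart. Co-culture 1 had 8.42% multimapping reads against 6.48% to 7.03% in the other libraries. Co-culture 2 and co-culture 3 had few forward-strand reads (a median share of 0.124% and 0.211% over well-covered genes, against 1.57% to 1.76% elsewhere). Without control 1 the number of all genes past the threshold rose from 704 to 3069.

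Of the 10 members, 3 fell in co-culture and 0 rose, at an adjusted p under 0.05 over all tested genes in edgeR's quasi-likelihood test. The genes that fell were the anti-apoptotic BCL2L1 and the BH3-only BID and BAD, with log2 fold changes from -0.36 to -0.30. Over all 14582 tested genes 4.83% passed this threshold, 2.17% lower and 2.66% higher. By class, 1 of 3 anti-apoptotic genes, 0 of 2 effectors and 2 of 5 BH3-only genes passed. At an unadjusted p under 0.05 there were 5 of 10 members, where 23.2% of all tested genes stood, the additional genes being BAX and BCL2L11. DESeq2 called 4 members (the same 3 and BAX) and limma-voom 2 (BCL2L1 and BID), where they called 7.28% and 4.63% of all tested genes. In 6 members the groups did not overlap in CPM, which was so for 29.3% of all tested genes. The median log2 fold change was -0.11 for the 10 members and 0.00 for all tested genes.

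**Figure D1:**
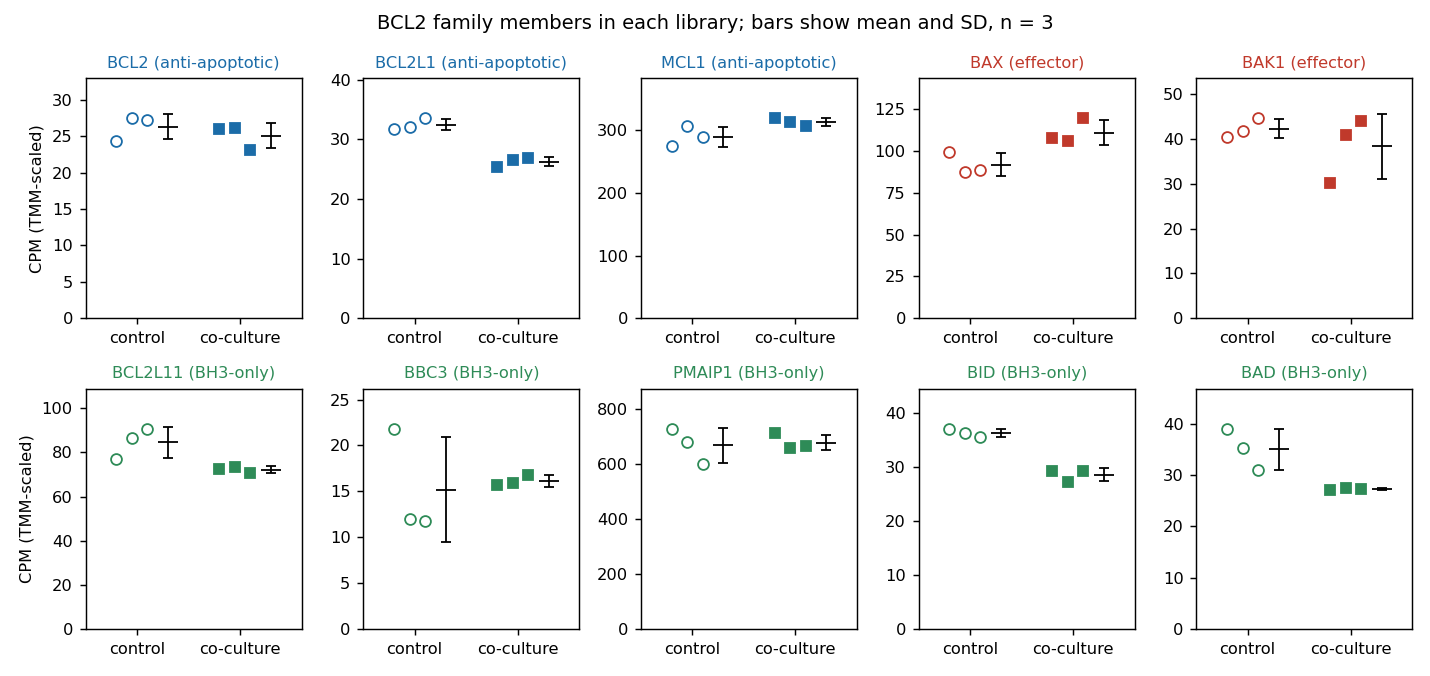
CPM, scaled by trimmed means of M-values (TMM), of each member in the 3 control libraries (open circles) and the 3 co-culture libraries (filled squares), in the order 1, 2, 3, with the mean and SD beside them on axes that start at 0. BCL2L1, BID and BAD lie lower in all co-culture libraries than in any control, and for BBC3 control 1 stands at 21.8 CPM above controls 2 and 3 at 12.0 and 11.8.

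Among the anti-apoptotic genes, BCL2L1 fell. It encodes BCL-XL, which binds BAX, BAK1 and several BH3-only proteins, and a short splice form that promotes death. BCL2L1 stood at 25.4, 26.5 and 26.9 CPM in co-culture 1, 2 and 3, and at 31.7, 32.0 and 33.5 CPM in controls 1, 2 and 3. The groups did not overlap, and each was tight, with means of 26.2 ± 0.778 and 32.4 ± 0.937 CPM (SD, n = 3 each). The log2 fold change was -0.30 (SE 0.07, 95% interval -0.46 to -0.15, edgeR adjusted p 0.0345).

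MCL1 encodes a short-lived protein that restrains BAK1 and is bound by PMAIP1. It was at 319, 313 and 307 CPM in co-culture and at 274, 306 and 289 CPM in the controls. The groups were separate by less than 1 CPM, since co-culture 3 (306.7) and control 2 (306.1) nearly met. Its log2 fold change was 0.11 (SE 0.06, interval -0.03 to 0.25, edgeR adjusted p 0.313) and did not pass. BCL2, the founding member of the family, was at 25.9, 26.1 and 23.1 CPM in co-culture and at 24.4, 27.4 and 27.2 CPM in the controls. The groups overlapped, with a log2 fold change of -0.08 (interval -0.26 to 0.11, edgeR adjusted p 0.628).

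Neither effector passed the threshold. BAX, a pore-forming protein that is mostly cytosolic until activated and whose gene is a p53 target, stood at 108, 106 and 119.5 CPM in co-culture and at 99.6, 87.4 and 88.4 CPM in the controls. All co-culture values were above all control values, and control 1 was the highest control. The log2 fold change was 0.28 (SE 0.07, interval 0.12 to 0.43), with an edgeR adjusted p of 0.0533. Over 15 other analyses BAX passed in 3, with adjusted p-values from 0.000589 to 0.432. Without control 1 its log2 fold change was 0.34 (edgeR adjusted p 0.000589), in a fit where 20.8% of 14734 tested genes passed.

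BAK1, the effector that resides in the mitochondrial membrane, was at 30.1, 41.0 and 44.0 CPM in co-culture and at 40.4, 41.8 and 44.6 CPM in the controls. Co-culture 1 alone was low, and the other 5 libraries lay between 40.4 and 44.6 CPM. For BAK1 the log2 fold change was -0.14 (interval -0.41 to 0.14, edgeR adjusted p 0.549) and was 0.01 without co-culture 1 (edgeR adjusted p 0.960). Co-culture 1 is the library with the most multimapping reads, and BAK1 has a processed pseudogene copy; the part of either in this value was not tested. VDAC2, which encodes a membrane channel that binds BAK1, showed the same library apart, at 69.4 CPM in co-culture 1 and 91.3 to 98.5 CPM in the other 5 libraries. VDAC2 is named for this after its values were seen.

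The BH3-only genes BID and BAD fell. BID encodes the link from death receptors to mitochondria, since its protein is cleaved by the CASP8 protease to an active fragment. BID stood at 29.3, 27.1 and 29.2 CPM in co-culture and at 37.0, 36.2 and 35.6 CPM in the controls. The gap between the groups was wider than the range of either, and the means were 28.5 ± 1.23 and 36.3 ± 0.719 CPM. On the log2 scale BID changed by -0.34 (SE 0.07, interval -0.50 to -0.19, edgeR adjusted p 0.0219), the lowest adjusted p of the 10 members. BAD encodes a protein that growth factor kinases phosphorylate and thereby keep from BCL-XL. BAD was at 27.2, 27.6 and 27.2 CPM in co-culture and at 39.0, 35.2 and 31.0 CPM in the controls. The co-culture libraries agree within 1 CPM and lie below a control group that spreads from 31.0 to 39.0 CPM. The log2 fold change of BAD was -0.36 (SE 0.09, interval -0.55 to -0.16, edgeR adjusted p 0.0443), -0.27 without control 1 and -0.44 without control 3.

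BCL2L11, BBC3 and PMAIP1 did not pass. BCL2L11 encodes BIM, which binds all anti-apoptotic members and activates the effectors. It was at 72.7, 73.6 and 70.5 CPM in co-culture and at 76.8, 86.5 and 90.6 CPM in the controls. The groups did not overlap, but control 1 was near the co-culture libraries. The log2 fold change was -0.23 (SE 0.07, interval -0.38 to -0.07, edgeR adjusted p 0.0849), and without control 1 it was -0.30 (edgeR adjusted p 0.00123). Without control 1, 20.8% of 14734 tested genes passed.

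BBC3 encodes PUMA, a p53-induced protein that binds all anti-apoptotic members. It was at 15.7, 15.9 and 16.8 CPM in co-culture and at 21.8, 12.0 and 11.8 CPM in the controls. The co-culture libraries lay between control 1 and the other controls, so that the sign rested on single libraries. With all libraries the log2 fold change was 0.09 (SE 0.22, interval -0.41 to 0.60, edgeR adjusted p 0.832). Without control 1 it was 0.44 (edgeR adjusted p 0.00313, in a fit where 20.8% of 14734 tested genes passed), without control 2 -0.04 and without control 3 -0.07.

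PMAIP1 encodes NOXA, a BH3-only protein that prefers MCL1. It was at 711, 659 and 664 CPM in co-culture and at 727, 679 and 600.5 CPM in the controls. The groups overlapped widely. Between the groups PMAIP1 differed by 0.02 on the log2 scale (SE 0.08, interval -0.15 to 0.19, edgeR adjusted p 0.906). A change as large as that of BCL2L1, BID or BAD lies outside this interval.

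**Figure D2:**
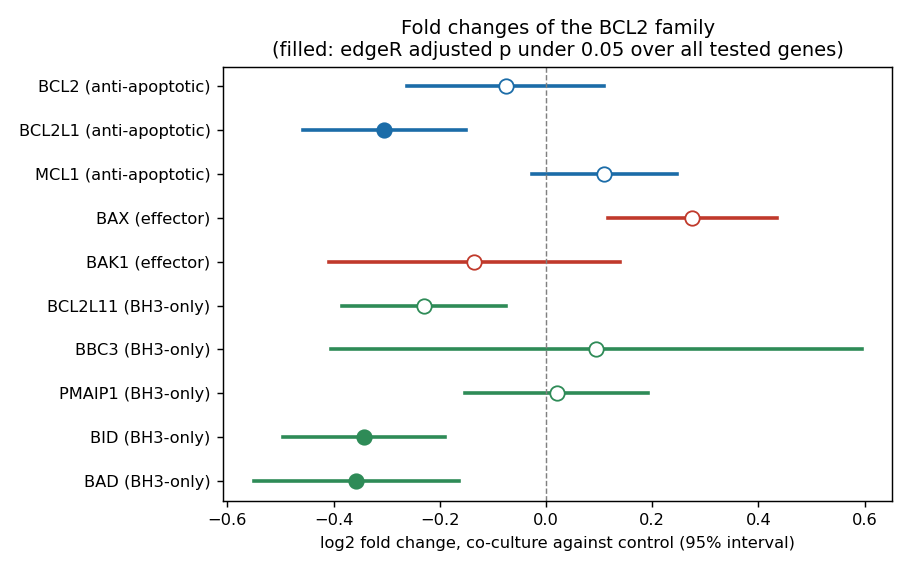
Log2 fold changes of the 10 members, co-culture against control, with 95% intervals that are not adjusted for the number of genes; filled points passed an edgeR adjusted p of 0.05 over all tested genes. The filled points are BCL2L1 (-0.30), BID (-0.34) and BAD (-0.36), and BBC3 has the widest interval.

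Reads from the opposite strand made up 0.225% (BAX) to 3.76% (BID) of the reads over a member in all libraries together. For PMAIP1 that share was 0.202% and 0.602% in co-culture 2 and 3 and as much as 5.06% in the other 4 libraries.

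The start regions of BCL2L1, BID and BAD, which fell together, are printed with that of BAX, the member with the largest positive change. Sequences are RefSeq's for GRCh38.p14, from 250 bases before to 50 bases after the gene's start, 5′ to 3′ on the gene's strand. They were matched by symbol, and 9 of the 10 members had an entry; MCL1 had none. The counts were made on another build, hg18 in the submitters' processing notes, so these coordinates belong to the sequences only. Capitals mark, on either strand, the GC box GGGCGG, the E-box CACGTG and the ETS motif CCGGAAG, and 0 bases lie in more than 1 of them.
BCL2L1, chr20:31723914-31724213, minus strand: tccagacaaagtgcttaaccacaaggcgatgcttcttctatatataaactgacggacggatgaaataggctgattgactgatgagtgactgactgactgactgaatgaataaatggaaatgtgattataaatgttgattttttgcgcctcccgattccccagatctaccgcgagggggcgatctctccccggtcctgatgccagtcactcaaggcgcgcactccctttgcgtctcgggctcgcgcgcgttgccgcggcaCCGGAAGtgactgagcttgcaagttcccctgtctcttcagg
BID, chr22:17774420-17774719, minus strand: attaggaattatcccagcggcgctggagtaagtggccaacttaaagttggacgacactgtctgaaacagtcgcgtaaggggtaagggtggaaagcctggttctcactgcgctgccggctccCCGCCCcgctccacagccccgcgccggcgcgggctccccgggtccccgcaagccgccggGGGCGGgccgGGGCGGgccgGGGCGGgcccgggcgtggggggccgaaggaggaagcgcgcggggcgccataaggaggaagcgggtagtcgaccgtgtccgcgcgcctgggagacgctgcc
BAD, chr11:64284655-64284954, minus strand: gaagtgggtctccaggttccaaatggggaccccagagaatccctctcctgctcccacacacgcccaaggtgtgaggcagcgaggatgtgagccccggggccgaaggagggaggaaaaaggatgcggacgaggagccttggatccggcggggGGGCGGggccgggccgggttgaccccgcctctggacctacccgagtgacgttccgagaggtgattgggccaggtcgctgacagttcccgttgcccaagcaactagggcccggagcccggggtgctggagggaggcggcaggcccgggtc
BAX, chr19:48954625-48954924, plus strand: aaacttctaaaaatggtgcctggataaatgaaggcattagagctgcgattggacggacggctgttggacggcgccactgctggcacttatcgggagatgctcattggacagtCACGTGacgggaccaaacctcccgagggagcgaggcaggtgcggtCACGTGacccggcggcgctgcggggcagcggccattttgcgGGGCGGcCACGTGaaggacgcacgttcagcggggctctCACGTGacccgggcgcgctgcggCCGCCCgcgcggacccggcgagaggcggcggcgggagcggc
BID held 4 GC boxes, BAD 1 and BCL2L1 0, and BCL2L1 held 1 ETS motif. BAX held 4 E-boxes and 2 GC boxes. Of 35116 RefSeq start regions of this length, 45.0% held a GC box, 7.26% an E-box and 10.3% an ETS motif. Of the 9 members with an entry, 6 held a GC box, 2 an E-box and 1 an ETS motif. PMAIP1, which did not pass, held 4 GC boxes like BID. No marked motif was present in all 3 of the genes that fell. Other motifs were searched as well and are not marked. The GC content of the regions was 52.0% for BCL2L1, 71.7% for BID, 68.3% for BAD and 67.3% for BAX, beside a median of 58.7% over all regions. A match is a string of letters and not a bound site.

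Levels were compared between members only per length, as CPM per kb of the longest coding transcript in GENCODE release 29. Which transcript the cells use is not known, and GENCODE 29 is of another build than the counts, so small steps in this order carry little weight. PMAIP1 was far ahead at 308 to 373 CPM per kb over the 6 libraries. MCL1 (69.8 to 81.1) and BAX (64.4 to 88.0) followed and overlapped. BAD came next at 23.5 to 33.7, above all libraries of the genes behind it. BAK1 (13.6 to 20.2), BCL2L11 (13.5 to 17.3), BID (10.9 to 14.8), BCL2L1 (9.72 to 12.8) and BBC3 (6.41 to 11.9) formed a run in which each overlapped its neighbour. BCL2 was lowest, at 3.10 to 3.68 CPM per kb. MCL1 therefore made up 85.3% to 86.0% of the summed per-length level of the 3 anti-apoptotic genes in co-culture and 81.7% to 83.0% in the controls. The share of BCL2L1 in that sum was 10.3% to 11.3% in co-culture and 13.1% to 14.3% in the controls. These shares follow from the values above and have no test of their own.

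Ratios between members within a library do not depend on how libraries are scaled. They are ratios of RNA counts, and the balance between the family's proteins was not measured. BAX to MCL1 was not among the pairs. The pairs were chosen by known binding partners, and the ratios have no test. The log2 ratio of BAX to BCL2L1 counts was 2.08, 2.00 and 2.15 in co-culture and 1.65, 1.45 and 1.40 in the controls. It was higher in each co-culture library than in any control, by 0.58 on the mean, with a pooled SD of 0.11 within groups. Leaving out 1 library at a time gave differences of 0.53 to 0.65. The log2 ratio of BAX to BCL2 was 2.05, 2.02 and 2.37 in co-culture and 2.03, 1.67 and 1.70 in the controls, and control 1 reached into the co-culture range.

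Among the BH3-only genes, the log2 ratio of BCL2L11 to BCL2 was 1.49, 1.49 and 1.61 in co-culture and 1.66, 1.66 and 1.74 in the controls, lower without overlap by 0.15 on the mean. BAD and BCL2L1, whose proteins bind each other, both fell, and the groups overlapped in their log2 ratio, which was 0.10, 0.06 and 0.02 in co-culture and 0.30, 0.14 and -0.11 in the controls. The log2 ratio of PMAIP1 to MCL1 was 1.16, 1.07 and 1.12 in co-culture and 1.41, 1.15 and 1.05 in the controls, with overlap. BCL2L11 to BCL2L1, BBC3 to MCL1, BBC3 to BCL2L1 and BAK1 to MCL1 also overlapped between the groups. Of the 9 ratios, 2 did not overlap between the groups, those of BAX to BCL2L1 and of BCL2L11 to BCL2; 29.3% of single tested genes did not overlap, and the share over other gene pairs was not computed.

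**Figure D3:**
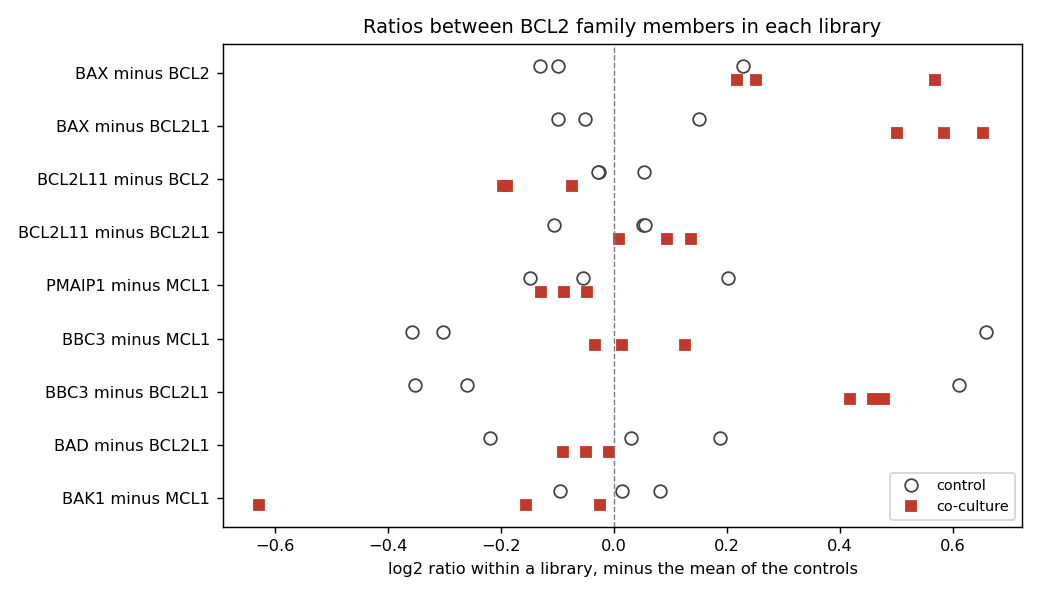
Log2 ratios of the counts of 2 members within each library, shown as the distance from the mean of the 3 controls (open circles: controls; squares: co-culture). The BAX to BCL2L1 ratio lies higher in all 3 co-culture libraries (mean difference 0.58), and in the BAK1 to MCL1 ratio co-culture 1 lies apart.

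The family and genes close to it were followed in 15 further genes. Of these, 8 were listed as BCL2-like outside the classes, BECN1 and BCLAF1 among them. Of the 15, 12 had enough reads to be tested and 0 passed the threshold. An unadjusted p under 0.05 was found for 3, and for 23.2% of all tested genes. DESeq2 called 1 (BNIP3L) and limma-voom 0, where they called 7.28% and 4.63% of all tested genes. BCL2A1, BCL2L10 and BCL2L14 were below the filter, at 5 reads or fewer in every library. BNIP3L, a mitophagy receptor with a BH3-like stretch, had a log2 fold change of 0.29 (edgeR adjusted p 0.0844), at 118, 115 and 118 CPM in co-culture against 109.6, 95.05 and 82.3 CPM in the controls. BMF, a BH3-only gene, had 0.25 (edgeR adjusted p 0.137), at 50.7, 53.5 and 54.1 CPM against 50.1, 37.8 and 44.8 CPM. Both were higher in each co-culture library than in any control. The groups did not overlap, in either direction, for 29.3% of all tested genes. Without control 1 BNIP3L and BMF passed (0.40 and 0.35, edgeR adjusted p 0.000158 and 0.00291), in a fit where 20.8% of 14734 tested genes passed. BOK, an effector-like gene, had 0.28 (edgeR adjusted p 0.483), and its highest library was control 1 at 8.44 CPM. Without control 1 BOK stood at 0.61 (edgeR adjusted p 0.00710).

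The low BH3-only genes BIK and HRK, at means of 1.95 and 3.49 CPM in co-culture and 2.69 and 4.35 CPM in the controls, differed by -0.46 and -0.34 on the log2 scale (edgeR adjusted p 0.202 and 0.305). BCL2L2, which encodes the anti-apoptotic BCL-W, had 0.14. The log2 fold changes of BNIP3, BCL2L12, BCL2L13, BECN1 and BCLAF1 were 0.06, 0.12, -0.06, 0.05 and 0.08. BCL2L15 had -0.01 (SE 0.45) at about 1 CPM or less in every library. Over BCL2L12, 21.0% of reads were on the opposite strand.

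Of 47 genes around the mitochondrial step, all tested, 4 passed: 1 rose and 3 fell, with a median log2 fold change of -0.02. Of all tested genes 4.83% passed, 2.66% higher and 2.17% lower. FADD, the adaptor that recruits CASP8 to death receptors, fell from 40.5, 39.5 and 37.7 CPM in the controls to 32.1, 32.0 and 32.1 CPM. This was a change of -0.29 on the log2 scale (SE 0.07, edgeR adjusted p 0.0340). RIPK1, a kinase of the same complexes, had -0.24 (edgeR adjusted p 0.0548). FADD was the 1 gene of the 8 in that list, which also holds the receptors FAS and TNFRSF10B, to pass in edgeR, DESeq2 or limma-voom.

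FOXO3, a transcription factor that activates BCL2L11 and BBC3, fell from 134, 134 and 128 CPM to 105, 111 and 118 CPM, or by 0.24 on the log2 scale (SE 0.06, edgeR adjusted p 0.0474). DDIT3, which encodes the stress factor CHOP, fell by 0.98 on the log2 scale (edgeR adjusted p 0.00105), from 19.4, 21.3 and 18.5 CPM to 9.11, 10.8 and 10.1 CPM. Over DDIT3, 29.2% of reads lay on the opposite strand. Of the 9 listed transcription factors, these were the 2 that passed, where 4.83% of all tested genes passed and 2.17% were lower. An unadjusted p under 0.05 in edgeR was found for 4 of the 9, and for 23.2% of all tested genes. The log2 fold change was negative for 7 of the 9 and positive for 2, with a median of -0.10. OPA1, a GTPase that keeps mitochondrial cristae closed, rose from 108, 120 and 124 CPM to 149, 144 and 134 CPM, or by 0.28 on the log2 scale (SE 0.07, edgeR adjusted p 0.0460). DNM1L, which divides mitochondria, had 0.15 (edgeR adjusted p 0.198). The calls of FADD, FOXO3 and OPA1 were lost when any of 4 libraries was left out. Without co-culture 1, 2 or 3 or control 2, the edgeR adjusted p was 0.143, 0.176, 0.0866 and 0.147 for FADD. For FOXO3 it was 0.207, 0.208, 0.0607 and 0.180, and for OPA1 0.181, 0.193, 0.0573 and 0.151. With strand class as a batch term, FADD, FOXO3 and OPA1 stood at -0.29, -0.33 and 0.34 on the log2 scale (edgeR adjusted p 0.317, 0.218 and 0.244). Each kept its direction in these fits, and DDIT3 kept its call in all 15 alternatives.

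Caspases and their regulators gave 0 calls of 16 in edgeR, with 3 at an unadjusted p under 0.05, where 23.2% of all tested genes stood. DESeq2 called BIRC5 and limma-voom 0, where they called 7.28% and 4.63% of all tested genes. APAF1, the scaffold of the apoptosome, had a change of 0.14 on the log2 scale (edgeR adjusted p 0.167). BIRC5, or survivin, had -0.20 (edgeR adjusted p 0.0790), and DIABLO, which is released from mitochondria to block inhibitors of apoptosis, had -0.15 (edgeR adjusted p 0.242). HUWE1, a ligase that removes MCL1, and USP9X, a deubiquitinase that stabilises it, had 0.09 and 0.12 (edgeR adjusted p 0.391 and 0.402).

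**Figure D4:**
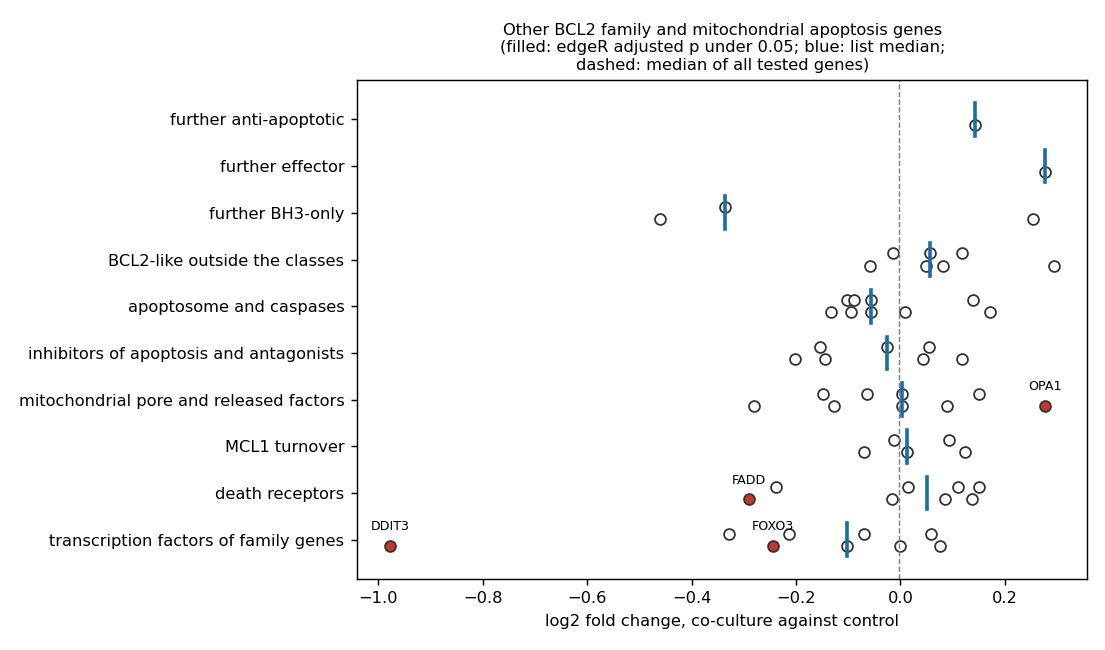
Log2 fold changes of the 59 tested genes outside the 10 members, by list; filled points passed an edgeR adjusted p of 0.05, blue bars are list medians and the dashed line is the median of all tested genes. The labelled genes that passed are OPA1 (0.28), FADD (-0.29), FOXO3 (-0.24) and DDIT3 (-0.98).

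The calls of the members changed with single libraries. Without control 2, or without any of co-culture 1, 2 or 3, 0 of 10 members passed edgeR's threshold. In that order, 0.440%, 0.831%, 0.503% and 2.18% of all genes passed in these fits. In each, 5 members had an unadjusted p under 0.05, as had 2450 of 14766, 2365 of 14793, 2169 of 14706 and 2997 of 14718 genes. Without control 3 there were 2 (BID and BAD), where 735 of 14711 genes passed, and without control 1 there were 6 (BCL2L1, BID, BAD and BCL2L11 lower, BAX and BBC3 higher), where 20.8% of all genes passed. Across these fits the log2 fold change ran from -0.32 to -0.28 for BCL2L1, from -0.36 to -0.31 for BID, from -0.44 to -0.27 for BAD and from 0.22 to 0.34 for BAX.

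The strand difference between libraries left co-culture 1 as the single co-culture library comparable with the controls. In a fit with the strand split as a batch term, BCL2L1, BID and BAD stood at -0.35, -0.31 and -0.37 (edgeR adjusted p 0.267, 0.308 and 0.335). There 0 of 10 members and 0.199% of all genes passed, and 4 members and 1824 of 14582 genes had an unadjusted p under 0.05. BAX stood at 0.23 (edgeR adjusted p 0.432) in that fit. BAK1 moved furthest, to -0.49 (edgeR adjusted p 0.164).

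**Figure D5:**
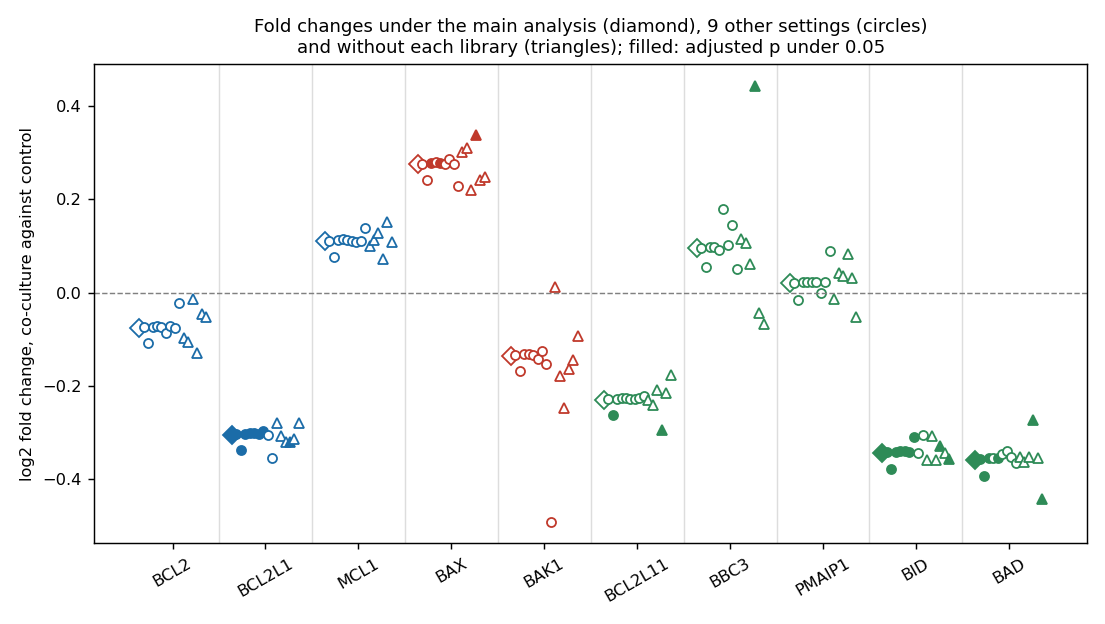
Log2 fold changes of the 10 members in the main analysis (diamonds), in 9 other settings (circles) and without each of the 6 libraries (triangles); filled symbols passed an adjusted p of 0.05. BCL2L1, BID and BAD stay below 0 and BAX stays above 0 in all of them, while BAK1, BBC3 and PMAIP1 cross 0.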

How the data were processed

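RNA was sequenced from 6 HEK293 samples extracted with TriPure and prepared with a stranded Illumina mRNA kit (per the labels' protocols). The authors deposited raw counts of reads per gene, 1 file a sample, with 4 summary lines and 3 count columns as STAR's gene counting writes them. The submitters' processing notes name STAR 2.53a, FastQC and hg18, without roles. The annotation release is not given in the sources used here. Reverse-strand counts were used, since they far exceeded the forward-strand counts (741841 to 1133488 reads). The summary lines were left out: multimapping reads were 6.48% to 8.42% of all, reads in no gene 14.8% to 17.7%, unmapped reads 1.22% to 1.67% and ambiguous reads 0.835% to 1.01%. A read that maps to several places is counted for no gene, which lowers the counts of genes with close copies.

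The filterByExpr function (minimum count 10) chose the genes, which were scaled by TMM and tested in edgeR 4.0.16 (R 4.3.3) with a robust quasi-likelihood fit, group as the only term and Benjamini-Hochberg adjustment over 14582 genes at 0.05. SEs are the absolute log2 fold change over the square root of F, and the 95% intervals use the fit's degrees of freedom. A read was worth 0.0276 to 0.0524 CPM; the bounds from 0 counts use 3 reads and cover counting error only. Groups come from the titles. Chi-square per degree of freedom between libraries of a group was 4.73 to 18.5, so they differed by more than counting error. This check cannot tell separate cultures from repeat preparations of 1 culture. Log2 ratios used a prior count of 0.5. Named genes were the 10 members, each tested gene of the further family lists, and from the other lists those past the threshold and the 2 with the smallest p; 1 gene named by it is left out here. The members and lists were chosen with earlier results of these data known. Alternatives (DESeq2 1.42.0, limma 3.58.1 voom, other scalings, filters, unstranded counts, a replicate block, a strand term, each library left out) are in the closing section. Scripts were tested on simulated data.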

Additional observations from a re-analysis of the deposited data

How the results depend on the processing

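Over 15 alternatives the number of members past the threshold, 3 in the main analysis, was 0 with a replicate block and 0 with the strand term, and ran from 0 to 6 with 1 library left out; in the other 7 it was 2 to 4. The number of further family and pathway genes, 4, became 6 with total counts or DESeq2, 2 with unstranded counts, 1 with the replicate block and 1 with the strand term, and ran from 1 to 15 without a library. The number of all genes, 704, was 164 with the block and 29 with the strand term, and ran from 65 to 3069 without a library; the 1022 of DESeq2 and 882 of total counts were within 1.5 times. Total counts moved the share of higher calls from 55.1% to 35.1% and the median log2 fold change of all genes to -0.04, and BCL2L11 then passed as well. The cause was not tested. BID kept its call in 9 of 15 alternatives, BCL2L1 in 8, BAD in 6, FADD in 9, OPA1 in 8, FOXO3 in 7 and DDIT3 in 15; FOXO3 had an adjusted p of 0.0502 in limma-voom. Adjusted p ran from 0.00373 to 0.308 for BID, from 0.00495 to 0.267 for BCL2L1 and from 0.0106 to 0.335 for BAD. No pairing by replicate number was seen: deviations of same-numbered libraries correlated at -0.04, -0.09 and -0.09 across genes, and those of differently numbered libraries at 0.01 to 0.08. Deviations from means of 3 libraries follow any library that stands apart, so this does not settle whether cultures were paired. With the replicate block BCL2L1, BID and BAD stood at -0.31, -0.34 and -0.35 (edgeR adjusted p 0.105, 0.0807 and 0.105), and FADD, FOXO3 and OPA1 had adjusted p 0.109, 0.126 and 0.125. Among the named genes, signs turned for 6 that had not passed. PMAIP1 was -0.0154 with total counts, -0.00065 with unstranded counts and -0.0522 to 0.0838 without a library. Without a library, BBC3 ran from -0.0666 to 0.44, BAK1 from -0.25 to 0.0116, BCLAF1 from -0.0451 to 0.18, BNIP3 from -0.10 to 0.19 and BCL2L15 from -0.34 to 0.41. With the strand term BNIP3 was -0.0920. BCL2L15, at few reads, was 0.00342 without a filter, 0.0796 in DESeq2, 0.0395 with unstranded counts and 0.59 with the strand term. Depth limits BIK, HRK, BOK and BCL2L15, the named family genes under 10 CPM.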
